A study of Mus musculus with 16 samples.

Results

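The SLC25 genes, which encode the mitochondrial carrier family, were examined in mRNA collected from dopaminergic neurons of the substantia nigra pars compacta (SNc). Members were all genes whose mouse symbol is Slc25a followed by a number, which gave 47 of the 25006 genes listed in the count files. The 47 are all the genes with such a symbol in the GENCODE M21 annotation of the mouse genome (GRCm38, the build that mm10 names). Uncoupling proteins Ucp1 to Ucp3 and Mtch1 and Mtch2 belong to the same protein family under other symbols and were counted apart. By function, 2 of the 47 stand outside the inner mitochondrial membrane, since Slc25a17 is known as a peroxisomal carrier and Slc25a46 as a protein of the outer membrane.

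The mRNA was obtained with the RiboTag method, in which a viral vector expresses an epitope-tagged ribosomal protein only in cells with Cre recombinase, and tagged ribosomes are then immunoprecipitated together with their mRNA. All mice carried DAT-Cre+/-, so that Cre was driven by the dopamine transporter gene, and all had received the vector. The 8 wild-type mice are labelled with DAT-Cre+/- alone, and the 8 MCU-KO mice were also MCU fl/fl, which removes the pore of the mitochondrial calcium uniporter in DAT-expressing cells only. By the paper, the RiboTag controls came from a separate cross without MCU fl/fl parents. The groups thus differed in cross as well as in the floxed gene, and an effect of the cross was not tested. Each library came from 1 mouse, at postnatal day 45 and 30 days after injection.

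Carriers of this family share a fold of repeated transmembrane modules and exchange small solutes across the inner mitochondrial membrane, among them ADP and ATP, phosphate, amino acids, carboxylates and cofactors. Some have an N-terminal domain with EF hands facing the intermembrane space, through which cytosolic calcium regulates them without the uniporter. In neurons, the aspartate-glutamate carrier and the oxoglutarate carrier are the membrane steps of the MAS (malate-aspartate shuttle), by which electrons of cytosolic NADH reach the matrix.

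Library totals lay between 14129527 and 22016362 counts, the lowest in MCU-KO mouse 8, and the SLC25 genes took between 0.518% and 0.644% of them. The level of a gene in a mouse is its count after division by the DESeq2 size factor of the library (normalized count), and levels of different genes are compared per kb of annotated exon. Summed normalized counts of 12 dopaminergic marker genes had a median of 333552 (266460 to 345439) in wild type and 312104 (230339 to 391636) in MCU-KO. Glial mRNA was present as well, with a median of 76951 for 7 oligodendrocyte markers, 24686 for 8 astrocyte markers and 1859 for 8 microglial markers in wild type, against 83236, 22918 and 3161 in MCU-KO, and none of these markers was at 0 in all mice. Fewer cells of a type and less RNA per cell cannot be told apart in such samples. Mcu itself had 454 ± 274 normalized counts in wild type and 199.9 ± 139 in MCU-KO (SD, n = 8 each), ranging from 120.3 to 828.2 and from 5.82 to 410.1. Its log2 fold change was -1.19 (95% confidence interval -2.41 to 0.04; unadjusted p = 0.057, edgeR). These ranges overlapped, so that Mcu counts do not check the label of each library, and counts over the whole gene also include any exons outside the deleted part.

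The first question was which carrier genes had the most mRNA in these libraries. Levels include the glial mRNA given above, and its part in each carrier was not tested. A small set of genes held most of the family's mRNA. The 10 genes with the highest median per kb of exon in wild type were, in order, Slc25a4, Slc25a5, Slc25a3, Slc25a11, Slc25a33, Slc25a39, Slc25a1, Slc25a44, Slc25a14 and Slc25a22. Together they held 88.8 ± 0.772% of the family's summed level per kb (SD, n = 8 wild-type mice). The first 3 of them, which carry the substrates and the product of ATP synthesis, held 63.8 ± 2.85% in wild type and 63.6 ± 2.03% in MCU-KO. With the length of the longest coding transcript in place of all annotated exons, the same 10 genes led and the first 3 held 66.4% in both genotypes.

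**Figure D1:**
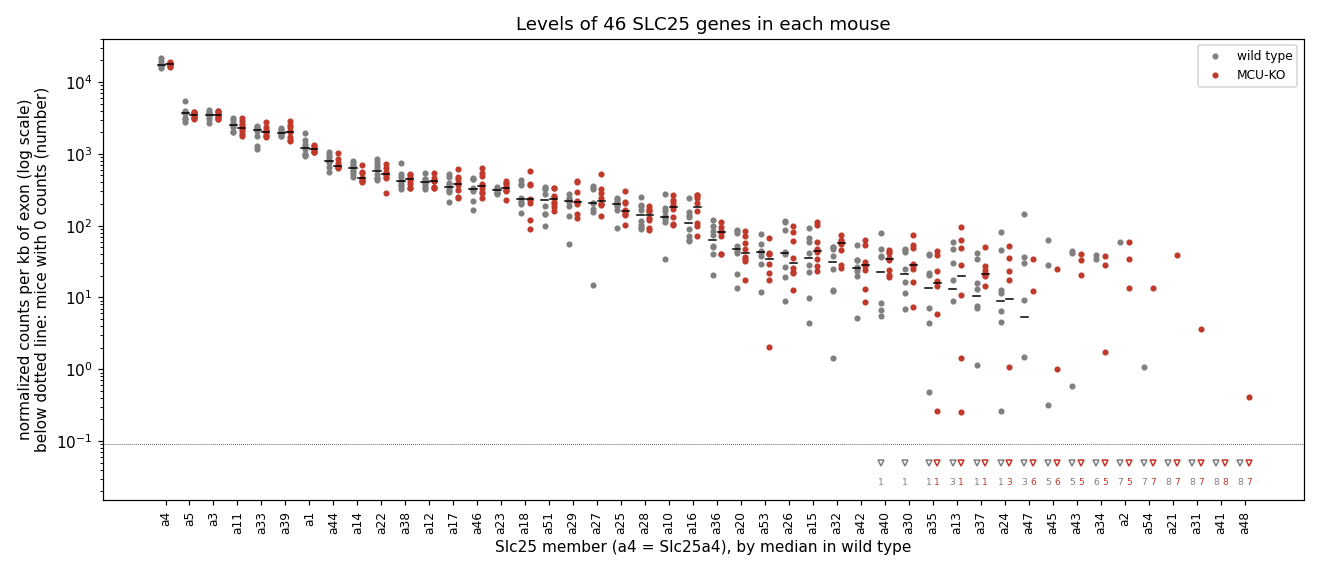
Normalized counts per kb of exon (log scale) of 46 of the 47 SLC25 genes in each mouse, wild type in grey and MCU-KO in red, with black lines for medians; numbers below the dotted line count mice with 0 counts. Slc25a4 stands above all others at 17425 per kb in wild type, and genes on the right are detected in some mice only.

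Slc25a4 encodes ANT1, the ADP/ATP exchanger known from heart, muscle and brain. It lies at chr8:46206797-46211284 on the minus strand. Its normalized counts in wild type ranged from 36868 to 51750 with a median of 41002, and in MCU-KO from 38242 to 44300 with a median of 42036. Slc25a4 alone held 45.6 ± 1.86% of the family's level per kb of exon in wild type and 45.6 ± 2.12% in MCU-KO (SD, n = 8 each). These shares depended on the length used. With the longest coding transcript as length, Slc25a4 held 37.5% in wild type. Slc25a3 then held 20.5%, in place of 8.86% per kb of exon. For Slc25a4 the lowest wild-type mouse had 15669 normalized counts per kb of exon. That was above the highest value of any other member in any wild-type mouse, 5479 for Slc25a5.

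Slc25a5 (chrX:36795651-36798807, plus strand) encodes ANT2, the exchanger known from dividing cells. Its normalized counts ranged from 4646 to 9019 in wild type, with a median of 6081, and from 4985 to 6278 in MCU-KO, with a median of 5707. Per kb of exon Slc25a4 was 4.89-fold above Slc25a5 in wild type, a mean log2 ratio of 2.29 ± 0.21 (SD, n = 8), with the same direction in 8 of 8 mice (p = 0.0078, exact two-sided sign-flip permutation test, the smallest it can give with 8 mice; p = 0.0087 after Benjamini-Hochberg adjustment over 10 pairs). In MCU-KO the log2 ratio was 2.35 ± 0.10 (SD, n = 8), and the difference between genotypes was 0.06 (p = 0.467, exact permutation test over all splits of the mice into 8 and 8). The third gene of this group, Slc25a31, encodes the testis form ANT4 and had no counts in 15 mice and 8 in the remaining one.

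Counts of such related genes can be told apart only where their sequences differ. The coding sequences of Slc25a4 and Slc25a5 were identical at 77.4% of aligned bases and shared no stretch of 50 bases, and their longest shared run was 20 bases. That run stands in capitals inside its surroundings, on the coding strand of exon 2, at chr8:46209267-46209310 (minus) for Slc25a4 and chrX:36797041-36797084 (plus) for Slc25a5.
Slc25a4: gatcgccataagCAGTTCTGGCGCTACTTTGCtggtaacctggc
Slc25a5: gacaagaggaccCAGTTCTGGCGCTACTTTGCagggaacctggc
Of the stretches of 50 bases in Slc25a5, 33.8% also occurred in transcripts of other genes, chiefly Gm5560, against 0% for Slc25a4, so that reads of Slc25a5 can match several places. How the authors' counting treated them was not tested. The level of Slc25a5 and its ratio to Slc25a4 can depend on that treatment.

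Slc25a3, the phosphate carrier (chr10:91116574-91124059, minus strand), ranged from 15122 to 22603 normalized counts in wild type, with a median of 19587, and from 16737 to 22313 in MCU-KO, with a median of 19168. Its place in the order depended on the length used. Per kb of all exons its median was 3529 in wild type, and its range overlapped that of Slc25a5 (2725 to 4073 against 2822 to 5479). Per kb of the longest coding transcript its median was 12151 and its range, 9381 to 14022, lay wholly above that of Slc25a5 (3747 to 7273), because the annotated exons span 5550 bases and that transcript 1612.

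The carriers of the MAS were Slc25a11 and Slc25a12. Slc25a11, the oxoglutarate-malate carrier (chr11:70644196-70647479), had 5357 ± 880 normalized counts in wild type and 5054 ± 1013 in MCU-KO (SD, n = 8 each). It came next after Slc25a3 per kb of all exons. Per kb of the longest coding transcript Slc25a39 stood above it, with wild-type medians of 3237 and 3130. Exons of Slc25a11 overlap the antisense gene Rnf167 over 8.92% of their length, where reads cannot be told apart without strand. Slc25a12 encodes Aralar, the calcium-regulated aspartate-glutamate carrier of neurons and muscle, and lies at chr2:71271063-71367749. Its normalized counts ranged from 2407 to 4039 in wild type, with a median of 2984, and from 2434 to 3972 in MCU-KO, with a median of 3038. The liver form, Slc25a13 (citrin, chr6:6041218-6217173), had no counts in 3 of the wild-type and 1 of the MCU-KO mice and reached 225.5 and 365.3 in others, with medians of 49.96 and 75.16. The mean of Slc25a12 per kb was 20.3 times that of Slc25a13 in wild type and 13.1 times in MCU-KO. The log2 ratio favoured Slc25a12 in 8 of 8 mice of either genotype (p = 0.0078 in each, exact sign-flip permutation test), and its mean of 6.43 ± 3.57 (SD, n = 8) in wild type rests in part on the 1 count added to zeros, since it was 5.52 with 5 added.

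Coding sequences of Slc25a12 and Slc25a13 were identical at 71.6% of aligned bases and shared no stretch of 50. Their longest shared run, 21 bases, stands in capitals, and crosses the junction of exons 11 and 12 in both genes; the bases lie within chr2:71293711-71296695 and chr6:6096709-6109211, both on the minus strand.
Slc25a12: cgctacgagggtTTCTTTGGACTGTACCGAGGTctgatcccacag
Slc25a13: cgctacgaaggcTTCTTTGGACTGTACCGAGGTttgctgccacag

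Glutamate is also carried by Slc25a22 and Slc25a18, known as glutamate carriers 1 and 2. Slc25a22 had 3615 ± 927 normalized counts in wild type and 3146 ± 769 in MCU-KO, and Slc25a18 had 529 ± 201 and 530 ± 310 (SD, n = 8 each). Per kb of exon the mean of Slc25a22 was 2.18 times that of Slc25a18 in wild type, and 4.65 times per kb of the longest coding transcript. Slc25a22 was higher in 8 of 8 wild-type mice (p = 0.0078) and in 7 of 8 MCU-KO mice (p = 0.039, exact sign-flip permutation tests). Slc25a18 is known from astrocytes, whose 8 markers summed to between 17089 and 29375 in wild type and between 18982 and 31546 in MCU-KO. The share of Slc25a18 mRNA that came from astrocytes was not tested.

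**Figure D2:**
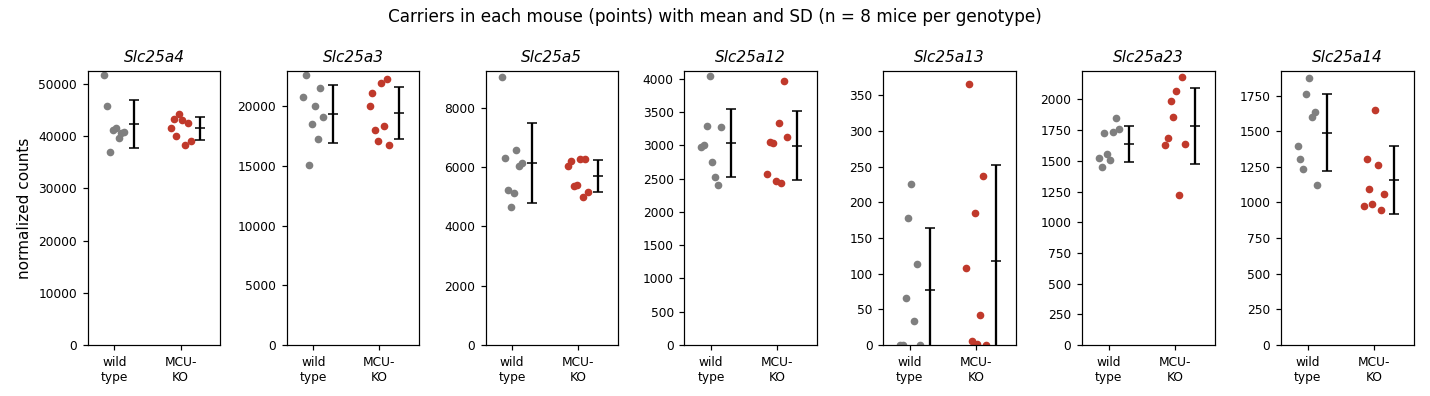
Normalized counts of 7 carriers, 1 point per mouse, with mean and SD (n = 8 per genotype) to the right of each group; every axis starts at 0 and has its own scale. The genotypes overlap in each panel, Slc25a13 includes mice at 0, and 5 of 8 MCU-KO mice lie below the lowest wild-type mouse for Slc25a14.

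Other carriers with EF hands are the exchangers of ATP-Mg for phosphate, which adjust the adenine nucleotide content of the matrix. Slc25a23 was the steadiest of the tested SLC25 genes across wild-type mice, from 1451 to 1852 normalized counts with an SD of 8.94% of the mean, and in MCU-KO it ranged from 1222 to 2185. Slc25a25 ranged from 738 to 1900 in wild type and from 807 to 2380 in MCU-KO. Slc25a24 was at 0 in 1 wild-type and 3 MCU-KO mice and reached 281 and 178. Slc25a41, the member of this group without EF hands, had no count in any mouse, which at 3 counts per library allows up to 0.136 to 0.212 CPM (counts scaled to the library total).

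Slc25a23 exceeded Slc25a24 per kb in 8 of 8 mice of each genotype (p = 0.0078 in each, exact sign-flip permutation test), with a ratio of means of 15.2 in wild type, or 23.9 per kb of the longest coding transcript. Against Slc25a25 the order was less firm. The log2 ratio of Slc25a23 to Slc25a25 per kb of exon was 0.73 ± 0.43 in wild type (SD, n = 8; higher in 8 of 8; adjusted p = 0.0087, exact sign-flip permutation test), but 0.23 per kb of the longest coding transcript, where it did not pass (adjusted p = 0.172, same exact test). These genes shared the longest run of the 10 pairs, 23 bases, shown in capitals at chr17:57053587-57053633 in exon 6 of Slc25a23 and at chr2:32417764-32417810 in exon 7 of Slc25a25, both on the minus strand.
Slc25a23: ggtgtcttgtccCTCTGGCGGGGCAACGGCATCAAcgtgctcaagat
Slc25a25: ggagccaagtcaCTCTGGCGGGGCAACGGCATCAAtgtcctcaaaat

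Carboxylate carriers besides Slc25a11 were led by Slc25a1, which exports citrate. Slc25a1 had 2767 ± 762 normalized counts in wild type and 2519 ± 230 in MCU-KO (SD, n = 8 each). Slc25a10, the dicarboxylate carrier, had 498 ± 238 and 609 ± 206. Slc25a21, the oxodicarboxylate carrier, was at 0 in all wild-type mice and in 7 MCU-KO mice, with 189 normalized counts in MCU-KO mouse 7.

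Among the genes related to uncoupling proteins, Slc25a14 (BMCP1 or UCP5) ranged from 1121 to 1876 in wild type, with a median of 1495. Slc25a27 (UCP4) ranged from 59.2 to 1414 in wild type, with a median of 810, and the value of 59.2 belonged to wild-type mouse 1 alone, the next lowest being 606. Slc25a30 (KMCP1) had 112 ± 85.4 (SD, n = 8) and was at 0 in 1 wild-type mouse. Slc25a14 exceeded Slc25a27 per kb in 8 of 8 wild-type mice (p = 0.0078, exact sign-flip permutation test). The mean log2 ratio was 1.88 ± 1.46 (SD, n = 8), and 1.40 without mouse 1. Slc25a27 in turn exceeded Slc25a30 in 7 of 8 (adjusted p = 0.0156, exact sign-flip permutation test), the exception being mouse 1. Of the uncoupling proteins proper, Ucp1 had no counts, Ucp3 was not tested and Ucp2 had 284 ± 125 normalized counts in wild type (SD, n = 8).

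Carriers for iron and for glutathione were each represented by a leading form. Slc25a39, which supplies glutathione to the matrix, ranged from 4902 to 6256 in wild type, with an SD of 9.70% of the mean, whereas its relative Slc25a40 ranged from 0 to 659. The ratio of their means per kb was 71.6 in wild type and 63.2 in MCU-KO, or 38.9 and 34.3 per kb of the longest coding transcript. Mitoferrin 2 (Slc25a28) had 562 ± 218 normalized counts and mitoferrin 1 (Slc25a37), the form of red cell precursors, 90.6 ± 91.1 in wild type (SD, n = 8 each), a ratio of means per kb of 9.97, or 16.9 per kb of the longest coding transcript. Slc25a38, the glycine carrier needed for heme synthesis, had 1243 ± 374 in wild type. Slc25a39 and Slc25a28 exceeded their relatives in 8 of 8 mice of both genotypes (p = 0.0078 in each, exact sign-flip permutation test).

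Slc25a33, a carrier of pyrimidine nucleotides, was the highest of the 9 carriers of cofactors and nucleotides, with 3686 ± 947 normalized counts in wild type and 3945 ± 645 in MCU-KO (SD, n = 8 each). Its relative Slc25a36 had 649 ± 314 and 729 ± 242. The ratio of means per kb was 28.9 in wild type, or 15.7 per kb of the longest coding transcript, with Slc25a33 higher in 8 of 8 mice (p = 0.0078, exact sign-flip permutation test). Exons of Slc25a33 overlap the antisense gene Gm13068 over 14.9% of their length, and reads of overlapping genes cannot be told apart without strand. Slc25a51, the NAD carrier, had 1284 ± 547 normalized counts in wild type. The peroxisomal Slc25a17 had 1039 ± 291, Slc25a16 and Slc25a42, linked to coenzyme A, 575 ± 300 and 166 ± 83.9, Slc25a26 (S-adenosylmethionine) 272 ± 202 and Slc25a32 (folate and FAD) 180 ± 118, all in wild type.

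Slc25a44, which carries branched-chain amino acids, was the highest of the carriers for amino acids and acylcarnitine, with 2930 ± 600 normalized counts in wild type and 2639 ± 482 in MCU-KO (SD, n = 8 each). Slc25a29, a carrier of basic amino acids, had 510 ± 184 in wild type, Slc25a20, the acylcarnitine carrier of fatty acid oxidation, 257 ± 138, and the ornithine carrier Slc25a15 229 ± 171. The second ornithine carrier, Slc25a2, had counts in 4 of 16 mice. Slc25a46, which acts in the shape and fusion of mitochondria, had 1812 ± 590 in wild type. Of the 8 genes to which no role was assigned, Slc25a53 had 339 ± 148 and Slc25a35 61.1 ± 59.9 in wild type. Exons of Slc25a35 overlap the antisense gene Rangrf over 31.3% of their length. The others, Slc25a34, Slc25a43, Slc25a45, Slc25a47, Slc25a48 and Slc25a54, were too low to be tested.

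**Figure D3:**
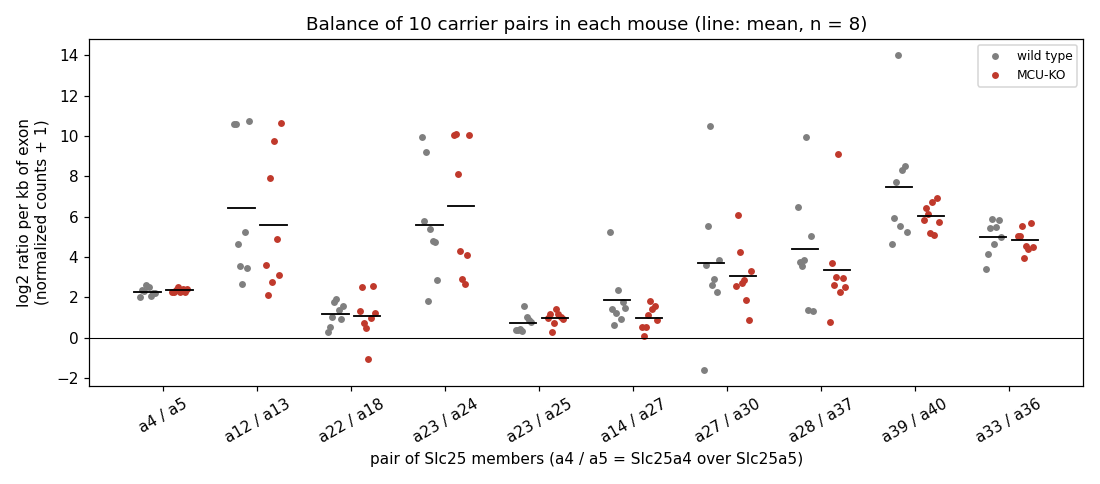
Log2 ratio of 10 pairs of related carriers per kb of exon (1 added to normalized counts) in each mouse, wild type in grey and MCU-KO in red, with lines at the mean of 8 mice. Nearly all points lie above 0, tightly for Slc25a4 over Slc25a5 and widely for pairs whose lower member is at 0 in some mice.

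Per kb of exon all 10 pairs passed within wild type and within MCU-KO after adjustment (adjusted p between 0.0087 and 0.0391, exact sign-flip permutation tests). Per kb of the longest coding transcript, Slc25a23 over Slc25a25 did not pass within wild type. The pairs were chosen with earlier results of these data known. Between genotypes no pair passed. The 10 differences of log2 ratio, MCU-KO minus wild type, lay between -1.48 (Slc25a39 to Slc25a40) and 0.96 (Slc25a23 to Slc25a24), with adjusted p between 0.808 and 0.883 (exact permutation test). The smallest unadjusted p was 0.094, for Slc25a14 to Slc25a27, whose difference of -0.90 was -0.41 without wild-type mouse 1. The difference of -1.48 was -0.55 without wild-type mouse 4, where Slc25a40 was at 0. The difference of 0.96 ran from 0.43 to 1.59 when 1 mouse was left out. With 5 added in place of 1 it was 0.55.

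Detection set a limit on the lower members. Of the 47 genes, 37 passed edgeR's filter on low counts and were tested, and 30 had at least 10 counts in every mouse. The 10 untested genes were Slc25a2, Slc25a21, Slc25a31, Slc25a34, Slc25a41, Slc25a43, Slc25a45, Slc25a47, Slc25a48 and Slc25a54. The highest count any of them reached in a mouse was 429, for Slc25a47, which was at 0 in 9 of the 16 mice. Among tested members Slc25a13, Slc25a24, Slc25a30, Slc25a35, Slc25a37 and Slc25a40 were at 0 in at least 1 mouse, and all 6 also reached at least 100 counts in another. Such genes made up 21.3% of all tested genes, 2645 of 12390. For these 6 members a low mean therefore stood for uneven values, with 0 in at least 1 mouse, at least 100 counts in another and values in between.

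**Figure D4:**
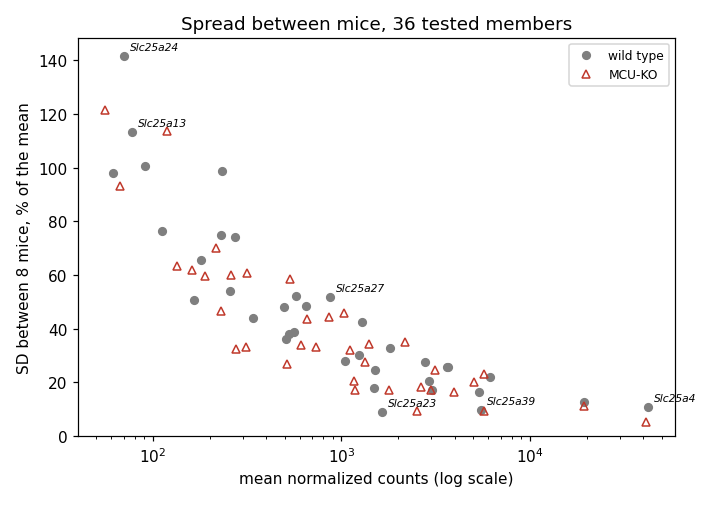
SD between the 8 mice as a percentage of the mean, against mean normalized counts (log scale), for 36 of the 37 tested SLC25 genes in wild type (grey circles) and MCU-KO (red triangles). In wild type the spread is 141.5% for the low Slc25a24 and 10.8% for Slc25a4, the highest, with the lowest, 8.94%, for Slc25a23.

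The second question was whether any carrier differed between MCU-KO and wild type. None of the 37 tested SLC25 genes passed an adjusted p of 0.05 (quasi-likelihood test of edgeR, Benjamini-Hochberg adjustment over 12390 genes), where 0.178% of all tested genes did. At an unadjusted p under 0.05, 1 member was found, Slc25a14, where 4.41% of all tested genes were. No member's normalized counts failed to overlap between the genotypes, against 0.258% of all genes. DESeq2 and limma-voom also called 0 members, where they called 90 and 27 of all genes. At an unadjusted p under 0.05, DESeq2 gave 2 of 46 members, Slc25a14 and Slc25a2, against 913 of 16990 genes. Slc25a2 was at 0 in 7 wild-type and 5 MCU-KO mice. Limma-voom gave 2 of 37 members, Slc25a14 and Slc25a32, against 829 of 12390 genes.

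Fold changes were small on balance. Estimates were higher in MCU-KO for 21 members and lower for 16, with a median log2 fold change of 0.05 against 0.0025 over all tested genes. They ranged from -0.39 for Slc25a53 to 0.79 for Slc25a32. The median size without regard to sign was 0.168 for the members and 0.214 for all tested genes. The 95% confidence interval lay within a 2-fold change in either direction for 22 of the 37 (59.5%, against 51.8% of all tested genes), and within 1.5-fold for 15.

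**Figure D5:**
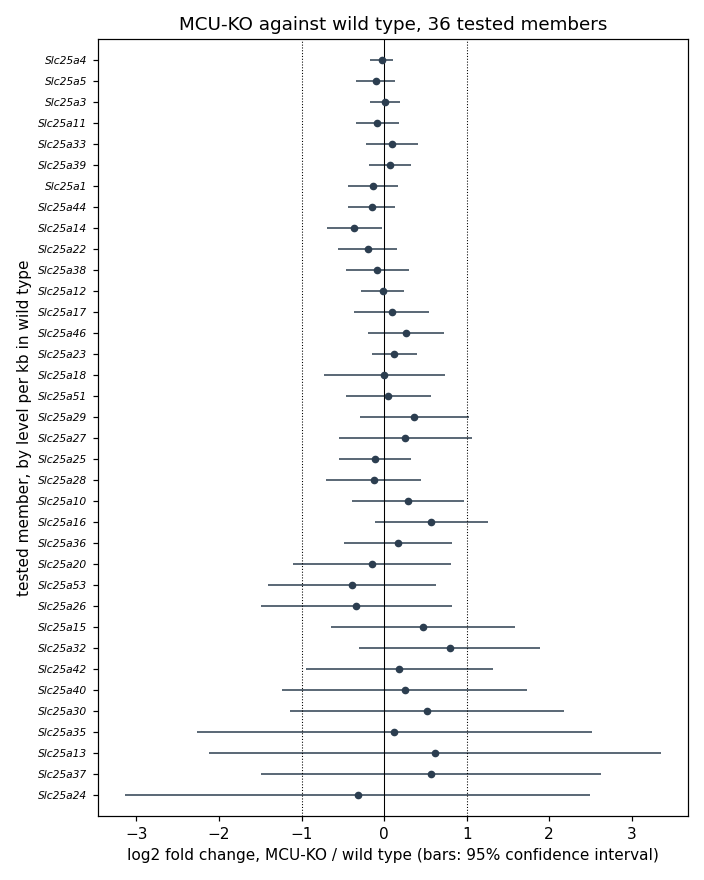
Log2 fold change of MCU-KO over wild type with its 95% confidence interval for 36 of the 37 tested SLC25 genes, ordered by level per kb in wild type; dotted lines mark a 2-fold change. Intervals are narrow at the top (Slc25a4, -0.17 to 0.11) and wide at the bottom (Slc25a24, -3.14 to 2.50), and the interval of Slc25a14 alone leaves out 0.

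The carriers of oxidative phosphorylation were the most precisely measured. The log2 fold change of Slc25a4 was -0.03 (95% confidence interval -0.17 to 0.11), that of Slc25a3 was 0.01 (-0.18 to 0.19) and that of Slc25a5 was -0.10 (-0.34 to 0.13). Carriers of the MAS had intervals almost as narrow, from -0.28 to 0.24 for Slc25a12 and from -0.34 to 0.18 for Slc25a11. The interval of Slc25a13, by contrast, ran from -2.12 to 3.35, so that a change of several-fold in either direction would not have been detectable. Of the calcium-regulated ATP-Mg carriers, Slc25a23 had a log2 fold change of 0.12 (-0.15 to 0.40) and Slc25a25 one of -0.11 (-0.54 to 0.33), neither of which passed.

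Slc25a14 (chrX:48623413-48662294, plus strand) had the smallest p of the family. Normalized counts ranged from 1121 to 1876 in wild type and from 947 to 1648 in MCU-KO, with medians of 1495 and 1076, so that the groups overlapped. The log2 fold change was -0.36 (SE 0.16, 95% confidence interval -0.69 to -0.03), with an unadjusted p of 0.033 and an adjusted p of 1.00 in edgeR's quasi-likelihood test. It thus failed the correction for multiple tests, and the unadjusted p stayed under 0.05 in 7 of the 16 fits that left out 1 mouse. The other genes of its group gave 0.25 (-0.55 to 1.06) for Slc25a27 and 0.52 (-1.14 to 2.18) for Slc25a30.

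Next by p was Slc25a16, with 575 ± 300 normalized counts in wild type and 854 ± 378 in MCU-KO (SD, n = 8 each) and a log2 fold change of 0.57 (-0.11 to 1.26; unadjusted p = 0.097, edgeR). Slc25a32 followed, with 180 ± 118 and 312 ± 103 and a log2 fold change of 0.79 (-0.31 to 1.89; unadjusted p = 0.149, edgeR). Of the 9 carriers of cofactors and nucleotides, 7 had higher estimates in MCU-KO and 2 lower, and none was called. Other members in full were Slc25a46 at 0.26 (-0.20 to 0.72), Slc25a22 at -0.20 (-0.55 to 0.15), Slc25a29 at 0.36 (-0.30 to 1.02), Slc25a44 at -0.15 (-0.44 to 0.14), Slc25a1 at -0.14 (-0.43 to 0.16), Slc25a33 at 0.10 (-0.21 to 0.41) and Slc25a39 at 0.07 (-0.19 to 0.32), and each interval included 0. For further members of the pairs the intervals also included 0, from -0.73 to 0.73 for Slc25a18, -0.70 to 0.45 for Slc25a28, -0.48 to 0.82 for Slc25a36, -1.50 to 2.63 for Slc25a37 and -1.24 to 1.73 for Slc25a40. Slc25a53, whose estimate of -0.39 was the lowest of the family, had an interval from -1.41 to 0.63.

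Shares of the family's summed level per kb of all annotated exons gave a like picture by role. They depend on the length used, as given above for Slc25a4 and Slc25a3. Adenine nucleotide carriers held 55.0 ± 2.84% in wild type and 54.6 ± 2.08% in MCU-KO (SD, n = 8 each). Carboxylate carriers held 10.03 ± 1.36% and 9.63 ± 1.24%, and cofactor and nucleotide carriers 8.49 ± 1.48% and 9.06 ± 0.843%. The 4 carriers of aspartate and glutamate held 3.35 ± 0.500% and 3.22 ± 0.378%, and the uncoupling-protein-like group 2.25 ± 0.500% and 2.04 ± 0.340%. The means of each of these groups differed between the genotypes by less than the SD between mice.

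Proteins that work beside the carriers were counted in the same fit. Of 12 other inner-membrane carriers and relatives, 9 were tested and none was called, 4 with higher and 5 with lower estimates. Mtch1, a member of the protein family that sits in the outer membrane, had 22124 ± 2234 normalized counts in wild type (SD, n = 8), and Mpc2, a subunit of the pyruvate carrier, had 6523 ± 1153. Over all 12390 tested genes, 0.178% were called and 4.41% had an unadjusted p under 0.05 (edgeR). Of 30 enzymes that use the carried substrates, 29 were tested and none was called, 11 with higher and 18 with lower estimates. One of them, Gclm, a subunit of the enzyme that starts glutathione synthesis, reached an unadjusted p under 0.05, with a log2 fold change of 0.60 (0.29 to 0.91; adjusted p = 0.187, edgeR). The 4 MAS enzymes Mdh1, Mdh2, Got1 and Got2 had estimates between -0.24 and -0.03, none of which passed.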

How the data were processed

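Libraries of RiboTag mRNA of SNc dopaminergic neurons from 8 wild-type and 8 MCU-KO mice were used here, 1 per mouse. The paper gives a larger number of MCU-KO mice for its RNA-seq. The authors trimmed reads (cutadapt in the paper, Trim Galore in the processing notes), used STAR with mm10 for alignment and obtained gene counts with HTSeq. The authors deposited whole-number counts without normalization. Versions and strandedness are not given in the sources used here. Read numbers carry no molecular identifiers, so that limits from 3 counts cover counting error only.

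Symbols, exon lengths and coding sequences came from GENCODE M21 on GRCm38 (24942 of 25006 identifiers had a symbol). The genotypes were compared with edgeR 4.0.16 (filterByExpr, TMM, quasi-likelihood F test) and p values adjusted by Benjamini-Hochberg over 12390 genes. The study used DESeq2, which served as an alternative. Normalized counts are counts divided by size factors of DESeq2 1.42.0. Other alternatives were limma-voom (limma 3.58.1), other normalizations and filters, a block for the mouse number and the omission of each mouse. Pairs of related carriers were compared by log2 ratios per kb with 1 added, using exact sign-flip tests over 256 patterns within a genotype and exact permutation over all splits of 8 against 8 mice between genotypes. Pairs were also compared with 5 added and with the longest coding transcript as length. Coding sequences were aligned with Biopython 1.88, tables made with Python 3.11.15 and pandas 2.3.3, plots with matplotlib 3.10.9. The edgeR fit and exact tests were tested on simulated data. Members, role groups, pairs and marker lists were chosen with earlier results of these data known. Members named in full were those of the 10 pairs, the 10 highest per kb, those at an unadjusted p under 0.05 and the one with the smallest p in each role group. The values of 1 member, counted in the totals, are not reported here. Slc25a32 and Gclm were named with statistics after their values were seen.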

Additional observations from a re-analysis of the deposited data

Results flagged for a closer look

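In 5 of the 72 sets of 8 mice examined for a single value far from the others (Dixon's test at 95%), 1 mouse stood apart. For independent sets of normally distributed values, chance flags about 1 in 20, or 3.6. That number need not hold here, since ratios share genes with other sets and some rest on 1 added to zeros. Slc25a5 had 9019 normalized counts in wild-type mouse 1 and 4646 to 6564 in the other wild-type mice. Slc25a27 had 2066 in MCU-KO mouse 2 and 537 to 1256 in the other MCU-KO mice. The log2 ratio of Slc25a14 to Slc25a27 was 5.27 in wild-type mouse 1, where Slc25a27 was at 59.2 normalized counts, and 0.65 to 2.37 in the others. The log2 ratio of Slc25a28 to Slc25a37 was 9.14 in MCU-KO mouse 5, where Slc25a37 was at 0, and 0.80 to 3.68 in the others. The log2 ratio of Slc25a39 to Slc25a40 was 14.04 in wild-type mouse 4, where Slc25a40 was at 0, and 4.63 to 8.53 in the others. The cause of these values was not tested.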

How the results depend on the processing

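No SLC25 gene was called under any of the 23 alternatives to the reported comparison. Without a filter on low counts, 3 of 46 members had an unadjusted p under 0.05, as did 2218 of 16990 genes (edgeR). They were Slc25a14 and the otherwise untested Slc25a21 (195 counts, all in MCU-KO mouse 7) and Slc25a31 (8 counts, all in MCU-KO mouse 2). DESeq2 gave 2 of 46 members against 913 of 16990 genes, and limma-voom 2 of 37 against 829 of 12390. With 1 mouse left out, edgeR gave 0 to 2 of 37 members, against between 476 and 648 of all genes tested. Slc25a14 kept its direction throughout, with log2 fold changes from -0.45 to -0.31 when 1 mouse was left out, but its unadjusted p was no longer under 0.05 in 9 of these 16 fits (without wild-type mouse 4, 5, 6 or 7, or MCU-KO mouse 1, 3, 4, 7 or 8). Over all genes, DESeq2 called 90 where edgeR called 22, and the replicate block 14. Estimates split 21 higher to 16 lower in the reported fit and 15 to 15 among genes with at least 10 counts in every mouse. Within wild type, Slc25a23 over Slc25a25 was 0.23 per kb of the longest coding transcript and no longer passed. Between genotypes, with no call, the log2 ratio of Slc25a22 to Slc25a18 moved from -0.29 to 0.24 and that of Slc25a27 to Slc25a30 from -1.41 to 0.32 when 1 mouse was left out; their sign turned without wild-type mice 4 or 5 or MCU-KO mice 4 or 5 for the former and without wild-type mouse 4 for the latter. The cause was not tested.

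Mice of the same number are different animals, and their deviations from the group means correlated by -0.0612 to 0.0309, so that the numbers did not pair the mice. With the replicate block, 2 of 37 members (Slc25a14 and Slc25a16) had an unadjusted p under 0.05, as did 535 of 12390 genes (edgeR). No member was called with it, and 0 of 8 mice correlated best with their own number.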
